A study of Homo sapiens with 5 samples.

Results

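The regions described here are 1061 ChIP-seq peaks of the transcription factor IRF3 in BT549 cells, an established basal-like breast cancer cell line. All come from the list of 8067 IRF3 peaks in cells that stably express caSmad3, a constitutively active Smad3, from a lentiviral vector and were transfected with polyI:C, a synthetic double-stranded RNA. The members were chosen by their measured absence from 2 other lists and by position. The rule kept peaks with no base in common with any of the 4125 IRF3 peaks of polyI:C-transfected cells carrying the HA control vector, and with none of the 6041 Smad3 peaks of polyI:C-transfected caSmad3 cells. It also kept only peaks whose centre lay over 1 kb from every outer end of a protein-coding gene. The members are 13.2% of the list, 56.9% of its 1865 peaks away from gene ends, and part of 19372 peaks in the 5 lists of the series. In order, 3297 of the 8067 peaks shared a base with an IRF3 peak of HA cells, 623 of the rest shared one with a Smad3 peak of caSmad3 cells, and 3086 of the remaining 4147 lay at a gene end. Neither IRF3 library nor the Smad3 library of caSmad3 cells received TGF-beta. Smad3 was also mapped in HA cells given 1 ng/ml TGF-beta for 1.5 h, with 353 peaks after mock transfection and 786 after polyI:C. All 5 libraries come from stably transduced cells of the same line, and whether these were pools or single clones is not given in the sources used here.

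Each group held 1 library, so no difference between conditions was tested. The lists give positions in bases with no score or read count. Depth is therefore unknown, and a peak missing from the HA list may have lain just under the caller's threshold. All 95% intervals are exact Clopper-Pearson intervals and cover counting error only. Peak lists hold no expression values, so the cell line was not checked against its markers.

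IRF3 is a latent factor of the antiviral response. Sensors of double-stranded RNA activate the kinase TBK1, which phosphorylates IRF3, and IRF3 then enters the nucleus and binds interferon-stimulated response elements (ISRE) at the interferon beta gene and at early antiviral genes. Smad3 is phosphorylated by TGF-beta receptors and binds short DNA sites, usually beside other factors such as AP-1. In breast cancer cells TGF-beta signalling is known for driving matrix and mesenchymal genes.

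The working name of the set calls it distal, and the data went against that name for a large part of it. The rule measured distance to the outer ends of each gene, and many genes have further transcription starts inside them. Of the 1061 members, 280 (26.4%, 23.8 to 29.2) lay within 1 kb of a RefSeq start of a protein-coding gene, and 127 more (11.97%, 10.1 to 14.1) lay within 1 kb of the start of a long non-coding RNA (lncRNA) gene. Together 407 members (38.4%, 35.4 to 41.4) lay at an annotated start. The start table covers 79.1% of protein-coding genes, so these counts are lower limits. The set is therefore named here by its rule, as caSmad3-only IRF3 peaks away from gene ends.

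The next sequences show what such inner starts look like inside a peak. They are the 4 widest members, outside near-duplicated genes, that cover the whole 250 bases before an inner start of a protein-coding gene. Each is given 5′ to 3′ in the direction of transcription and ends at the base before the start. Capitals mark CCAAT boxes (CCAAT), GC boxes (GGGCGG) and cyclic AMP response elements (CRE, TGACGTCA) on either strand. Sequences are from RefSeq, GRCh38.p14. LZTFL1, a regulator of protein traffic into cilia, has the stretch chr3:45842120-45842369 on the minus strand. ODF2, a protein of the centriole, has chr9:128456686-128456935 on the plus strand. PACRGL has chr4:20700208-20700457 on the plus strand, and VBP1, a subunit of the prefoldin chaperone, has chrX:155216174-155216423 on the plus strand.
LZTFL1: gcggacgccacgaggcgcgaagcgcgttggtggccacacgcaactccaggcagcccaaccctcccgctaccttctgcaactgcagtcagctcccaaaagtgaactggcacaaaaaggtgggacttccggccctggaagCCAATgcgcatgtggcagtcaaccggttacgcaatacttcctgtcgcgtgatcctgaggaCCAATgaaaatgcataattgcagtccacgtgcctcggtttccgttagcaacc
ODF2: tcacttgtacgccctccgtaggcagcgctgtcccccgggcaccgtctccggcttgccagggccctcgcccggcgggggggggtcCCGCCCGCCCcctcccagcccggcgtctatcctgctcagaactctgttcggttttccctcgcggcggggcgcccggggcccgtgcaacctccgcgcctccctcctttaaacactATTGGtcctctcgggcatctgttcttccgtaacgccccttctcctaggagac
PACRGL: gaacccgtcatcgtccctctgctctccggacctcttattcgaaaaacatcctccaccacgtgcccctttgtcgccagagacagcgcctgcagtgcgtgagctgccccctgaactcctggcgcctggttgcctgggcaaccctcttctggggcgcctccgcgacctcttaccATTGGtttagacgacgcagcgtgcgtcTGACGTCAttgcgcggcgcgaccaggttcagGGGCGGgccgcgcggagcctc
VBP1: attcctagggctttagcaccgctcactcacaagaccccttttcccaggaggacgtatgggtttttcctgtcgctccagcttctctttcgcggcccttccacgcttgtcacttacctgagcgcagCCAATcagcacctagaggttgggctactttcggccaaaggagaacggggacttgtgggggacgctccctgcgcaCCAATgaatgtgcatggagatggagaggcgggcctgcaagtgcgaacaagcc
All 4 stretches hold a CCAAT box, and in 3 of them, LZTFL1, ODF2 and VBP1, the nearest to the start begins at base -52. The box of PACRGL begins at base -79, ahead of a CRE at -52 and a GC box at -21. The peak at LZTFL1 was 470 bases wide with its nearest gene end 18980 bases away, and no IRF3 peak of HA cells or Smad3 peak of caSmad3 cells came closer than 152571 bases. The peak at VBP1 was 370 bases wide, 19242 bases from a gene end and 189023 bases from the nearest IRF3 peak of HA cells. PACRGL had a peak of 390 bases with no other of these peaks within 3027927 bases. The peak at ODF2 was 404 bases wide and differed from the others in its neighbour, a Smad3 peak 431 bases away. Each of these 4 members lay at the start of a RefSeq transcript and inside the outer ends of the same gene.

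The starts also place a well-known regulator in the set. RUNX1, a runt-domain factor of blood formation that is read from widely separated promoters, had a member of 146 bases over an inner start, 100918 bases from the nearest gene end. The part of that peak before the start is chr21:34888700-34888792 on the minus strand, with a CCAAT box at -89 and a GC box at -77 in capitals.
RUNX1: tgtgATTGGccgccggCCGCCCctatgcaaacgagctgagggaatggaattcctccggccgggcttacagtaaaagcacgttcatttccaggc
The nearest IRF3 peak of HA cells lay 361772 bases away, and the nearest Smad3 peak of caSmad3 cells 309269 bases away.

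Where the remaining members lay completes the picture. A further 153 (14.4%, 12.4 to 16.7) lay within 1 kb of an end of another non-coding gene, 199 (18.8%, 16.5 to 21.2) lay elsewhere inside a protein-coding gene, and 302 (28.5%, 25.8 to 31.3) lay between genes. Counted without regard to starts, 529 members (49.9%, 46.8 to 52.9) lay inside a protein-coding gene. The median distance to the nearest protein-coding gene end was 15787 bases, with quartiles of 4830 and 63672, and 220 members (20.7%) lay over 100 kb from any. The members were thus spread over genes and the space between them.

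**Figure D1:**
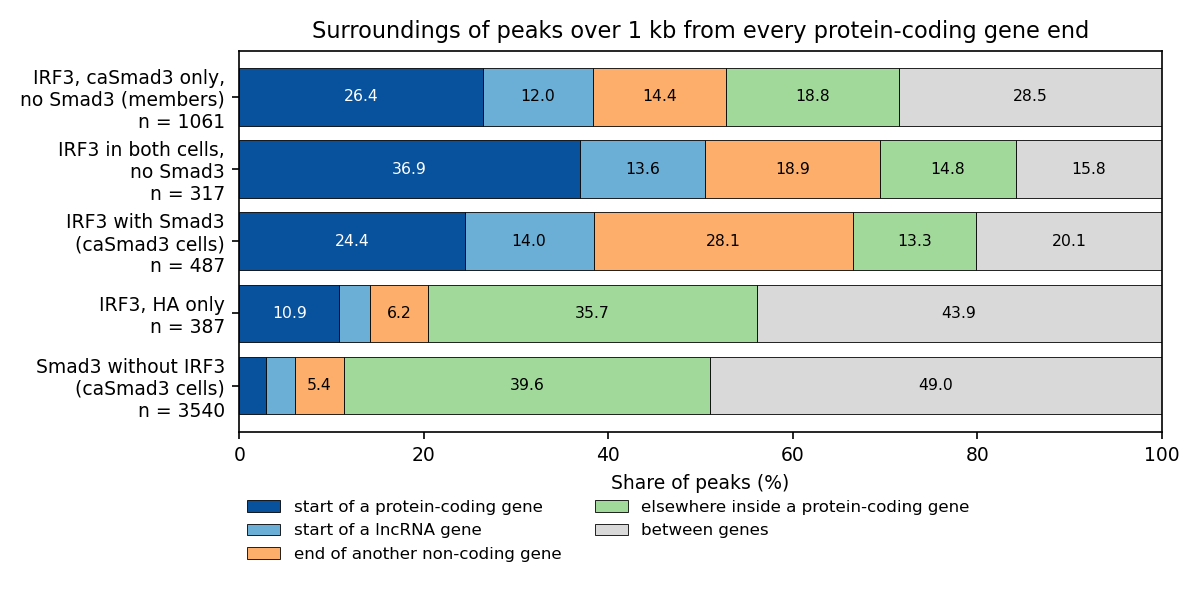
Share of peaks (%) by what lies at the peak centre, for 5 sets of peaks whose centre is over 1 kb from every protein-coding gene end. The top bar is the 1061 members, of which 26.4% lay at a protein-coding start, against 36.9% of IRF3 peaks found in both cell kinds and 2.88% of Smad3 peaks without IRF3.

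Other IRF3 peaks of caSmad3 cells away from gene ends had starts as often or more often. Of the 317 caSmad3 IRF3 peaks also listed in HA cells and without Smad3, 50.5% (44.8 to 56.1) lay within 1 kb of a start. Of the 487 that shared a base with a Smad3 peak, 38.4% (34.1 to 42.9) did, the same share as the members. These 487 were not sorted by the HA list, and 301 (61.8%) overlapped an HA IRF3 peak or lay within 100 bases of one. By contrast, the 3540 Smad3 peaks of caSmad3 cells without IRF3 and away from gene ends had a start in 5.99% (5.23 to 6.82), and the 387 IRF3 peaks found only in HA cells in 14.2% (10.9 to 18.1). These intervals do not overlap that of the members. They compare lists of single libraries and are no test of the conditions. The start table used has no entry for chromosome 8, where 30 members lie, and without that chromosome 39.5% of the members lay at a start.

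At inner starts of protein-coding genes the members gathered around the start itself. The median centre was 21 bases into the transcript, with quartiles of -135 and 111, and 123 of 280 (43.9%) had their centre within 100 bases. The 2586 caSmad3-only peaks at gene ends that also lay at a start gave a median of 18 bases and a share of 45.5% (43.5 to 47.4) within 100 bases. At inner starts, 59.8% (50.4 to 68.8) of the 117 constant peaks and 54.6% (45.2 to 63.8) of the 119 peaks with Smad3 had their centre that near, so the members' share was the lowest of the 4. All sets were taken within 1 kb of a start, and the rule sorted peaks by distance to a gene end, so these values are a description.

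**Figure D2:**
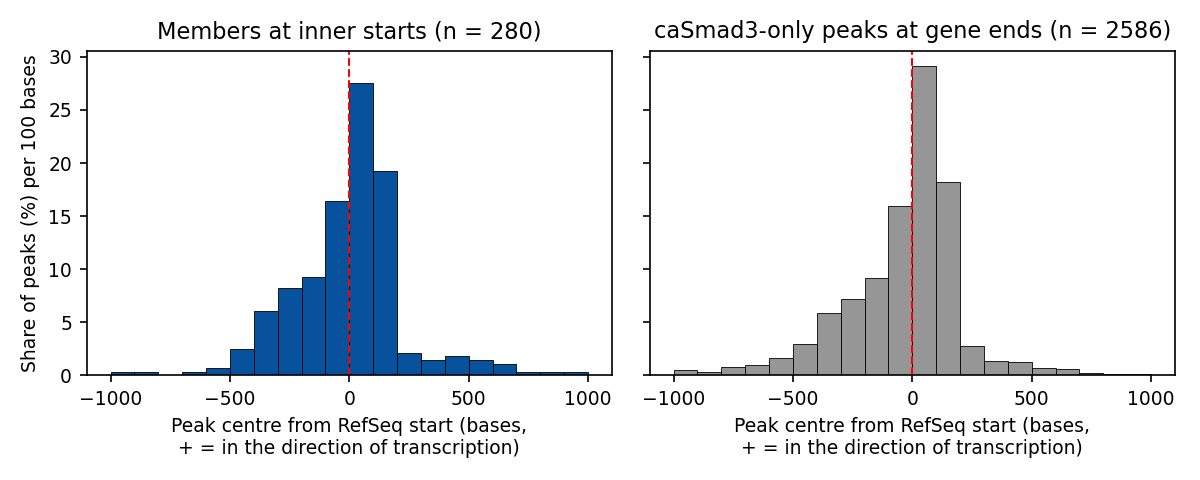
Signed distance in bases from a RefSeq start to the peak centre, as the share of peaks (%) per 100 bases, for 280 members at inner starts (left) and 2586 caSmad3-only peaks at gene ends (right). Both peak just after the start, with medians of 21 and 18 bases, and both have a tail before it.

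The 280 members belonged to 240 genes. In 53 of these genes (22.1%, 17.0 to 27.9) the HA list had an IRF3 peak in the gene or within 1 kb of it, and in 28 that peak lay at an outer end. In the caSmad3 list, 63 genes (26.3%) had an IRF3 peak at an outer end and 92 (38.3%) had some other IRF3 peak. Smad3 peaks of caSmad3 cells lay in 64 (26.7%). For 143 genes (59.6%, 53.1 to 65.8) neither IRF3 list held any peak but the member. Over all 20037 protein-coding genes, 23.5% had an IRF3 peak of HA cells inside or within 10 kb, and 40.5% had one of caSmad3 cells. Those shares use a wider window than the 1 kb used here. Most genes thus lack a listed HA peak, and the rule kept only members sharing no base with one, so these counts are a description.

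Peaks of the set were narrow. Their median width was 139 bases, with quartiles of 104 and 198, and 206 (19.4%, 17.1 to 21.9) had 99 bases, the narrowest width in the list. The caSmad3-only peaks at gene ends had a median of 168 bases and 10.9% at 99 bases. Constant peaks, listed in HA cells too and without Smad3, had 274 bases and 2.84%. Peaks with Smad3, most of them at or near an HA IRF3 peak as well, had 301 bases and 3.29%. Width and presence in a list both come from the caller, so these widths describe the set and support nothing else. Within the set, members at protein-coding starts (median 152.5 bases), lncRNA starts (165) and ends of other non-coding genes (152) were wider than those elsewhere inside genes (118) or between genes (124). At a start lay 41 of the 78 members of 300 bases or more.

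**Figure D3:**
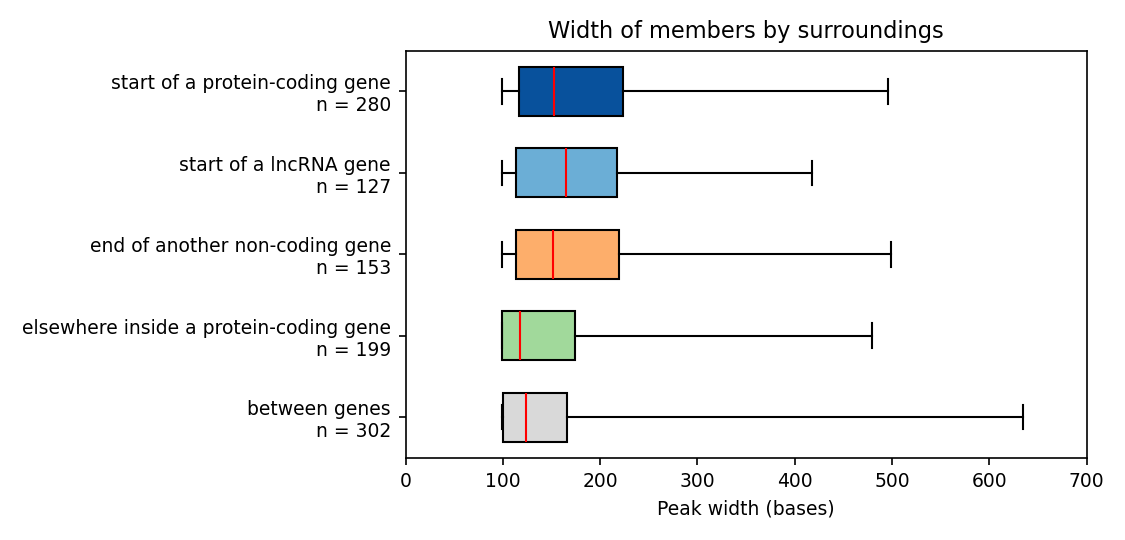
Width in bases of the members by surroundings. Boxes span the quartiles, red lines are medians and whiskers reach the narrowest and widest peak. The 3 classes at annotated gene features have medians of 152 bases or more, and the other two of 118 and 124.

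The widest member, chr5:141849469-141850103 with 635 bases, lay between genes, 3304 bases from PCDH1, which encodes a protocadherin. It was 474831 bases from the nearest IRF3 peak of HA cells. The next were 499 bases at the pseudogene PMS2P3 on chromosome 7, 496 bases at an inner start of FAM156A on chromosome X and 490 bases at the pseudogene AMZ2P1 on chromosome 17. PMS2P3 and FAM156A have near-identical copies elsewhere, so the placement of their reads is uncertain. A peak of 479 bases lay in KANK1, a regulator of actin at the cell cortex, 223 bases from a Smad3 peak, and one of 470 bases at the LZTFL1 start shown above. The list of the 10 widest closed with 462 bases in ARHGEF19, 450 bases near NPTX1, 447 bases at LINC00921 near MEFV, and 446 bases over an inner start of SMTN, the gene of the contractile protein smoothelin. The centre of the SMTN peak was 21 bases past the start. Of these 10 members, 3 lay at a protein-coding start and 3 at another non-coding gene.

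Short non-coding RNA genes were among the neighbours. TERC, the RNA template of telomerase, had a member of 208 bases, chr3:169764919-169765126, centred 38 bases from an end of the gene, with HA IRF3 and Smad3 peaks no nearer than 7971 bases. RNY5, a Y RNA, had one of 120 bases at 302 bases from its end. Small nuclear RNA genes near members were RNU6-1 (272 bases wide, 414 bases away), RNU6ATAC (227 wide, 620 away), LOC124904140 (180 wide, 641 away), and the U1 genes RNU1-1, RNU1-3 and RNVU1-27. The U1 genes are near-identical copies, so their peaks are uncertain in place. Beside RNU1-1, RNU1-3, RNVU1-27 and LOC124904140 the HA list had IRF3 peaks too, 274, 342, 72 and 147 bases from the members. At RNU1-1, RNU1-3 and LOC124904140 a Smad3 peak of caSmad3 cells also lay near, 239, 278 and 149 bases off. Over all members, 333 (31.4%, 28.6 to 34.3) had a non-coding gene end within 1 kb, most often of a lncRNA (214), and 9 had a miRNA gene, 4 a tRNA gene and 6 an rRNA gene. The share was higher for constant peaks (42.9%) and for peaks with Smad3 (50.3%).

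Some members lay in repeated DNA, where short reads can be placed in more than one copy. The densest megabase was chromosome 21 from 8 to 9 Mb, which holds the ribosomal RNA genes of the short arm, with 25 members. Within 50 kb of the 3 45S rRNA genes of the table lay 23 members (2.17%), against 72 of all 8067 peaks of the list (0.893%). Among the 487 peaks with Smad3 there were 45 (9.24%), and among the 317 constant peaks 4 (1.26%). Within 2 kb of a 5S rRNA gene lay 5 peaks of the list, and 4 of these were members. A group of 7 members lay within chr16:46388635-46400921, beside the heterochromatin of that chromosome. Leaving out the 23 members near 45S genes gave 1038, with 39.2% at a start.

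Members were mostly single. Joining members less than 1 kb apart gave 985 loci, of which 916 held 1 member and the largest 3. Another IRF3 peak of the same library lay within 10 kb of 388 members (36.6%, 33.7 to 39.6) and within 1 kb of 264 (24.9%, 22.3 to 27.6). For all 8067 peaks of the list these shares were 41.5% and 33.5%. Isolated members were thus the majority.

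The rule removed overlap and not nearness, and part of the set lay close to what was removed. An IRF3 peak of HA cells lay within 1 kb of 112 members (10.6%, 8.77 to 12.6) and within 100 bases of 12. For Smad3 peaks of caSmad3 cells the counts were 128 (12.1%, 10.2 to 14.2) and 34. Either kind lay within 1 kb of 186 members (17.5%, 15.3 to 19.95), and the others had neither that near. The caSmad3-only peaks at gene ends gave 15.1% and 10.8% for HA IRF3 and Smad3 peaks within 1 kb. The median member was 137446 bases from the nearest IRF3 peak of HA cells, 124099 from the nearest Smad3 peak and 36235 from the next IRF3 peak of its own list.

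**Figure D4:**
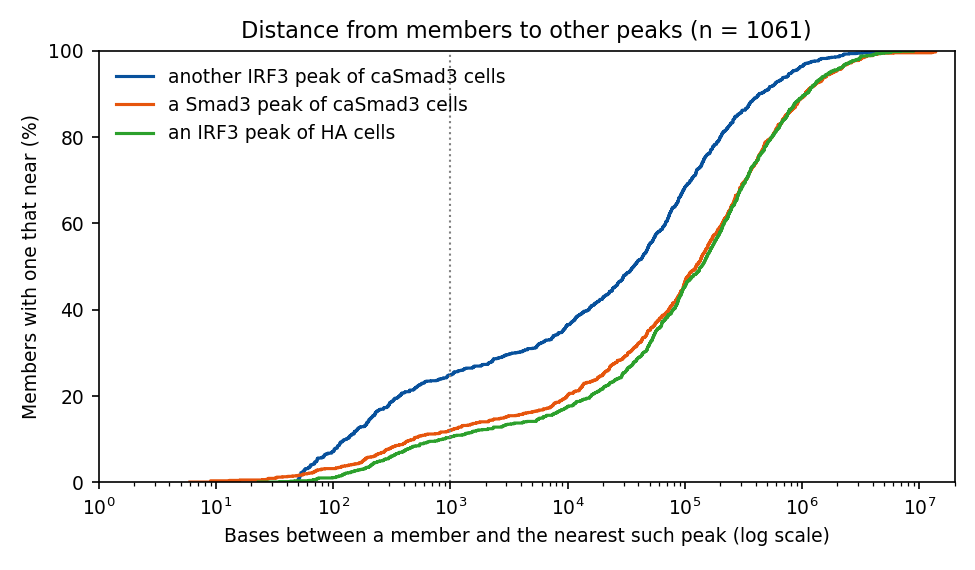
Cumulative share of the 1061 members (%) by the bases to the nearest other peak, on a log axis, with a dotted line at 1000 bases. At that line the curves stand at 24.9% for other IRF3 peaks of caSmad3 cells, 12.1% for Smad3 peaks and 10.6% for IRF3 peaks of HA cells.

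At the edges of the rule, members of PPP1R9B, NME2 and SMAD1 lay 1005, 1007 and 1009 bases from a gene end, and peaks at UBE2M and MXRA7 were left out at 996 and 987 bases. A peak at MORF4L2 was left out for 2 bases shared with an IRF3 peak of HA cells. The member nearest to a Smad3 peak was 6 bases away, at CHIC1, and a peak at ADGRG1 was left out for 2 shared bases.

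Smad3 peaks of HA cells, which the rule did not use, shared a base with 3 members (0.283%, 0.0583 to 0.824). After mock transfection there was 1, chr1:65002689-65002882, inside JAK1, the kinase of interferon receptors, and 309 bases from the start of LINC01359. It shared 56 bases with the Smad3 peak, and a Smad3 peak of caSmad3 cells lay 32 bases off. After polyI:C there were 2. One lay at chr15:70099413-70099553, 1566 bases before TLE3, a corepressor, and shared 98 bases. The other lay at chr3:10661306-10661448 inside ATP2B2, a calcium pump gene, and shared 99 bases. Among the 317 constant peaks there were 3 (0.946%, 0.196 to 2.74), and among the 487 peaks with Smad3 in caSmad3 cells 140 (28.7%, 24.8 to 33.0). Over all 8067 peaks there were 270 (3.35%), and among the 3086 caSmad3-only peaks at gene ends there were 0, which allows up to 0.0972%. The Smad3 lists of HA cells are short, so most IRF3 peaks of any kind shared no base with them. Of all 1865 IRF3 peaks of caSmad3 cells away from gene ends, 146 shared a base with them. Most of these, 140, also shared a base with Smad3 of caSmad3 cells and were removed by the rule. The low share among members is thus set in part by the rule.

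Genes were then read by lists of 459 protein-coding genes in 15 groups. Over all 20037 protein-coding genes, 3.77% had a member inside or within 10 kb of an end, and 2.71% had one within 10 kb of an end. Of the 459 genes, 31 (6.75%) had one inside or within 10 kb, through 37 members of 99 to 365 bases. At an annotated start lay 16 of the 37. For 18 of the 31 genes the HA list had no IRF3 peak inside or within 10 kb. Over all protein-coding genes only 23.5% had such a peak, so lacking one is the common case. The lists were chosen with earlier results of these data known and were given no test.

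The antiviral groups had few members, and with lists this short their counts cannot be told from the 3.77% of all genes. None of 20 direct IRF3 targets such as the interferon beta gene had one, a count that allows up to 15.0%. Of the same 20 genes, 13 had an IRF3 peak in HA cells and 3 had one in caSmad3 cells, where 23.5% and 40.5% of all genes did. Among 50 interferon-stimulated genes only IFI6 (2.0%), which encodes a mitochondrial survival protein, had a member, 215 bases wide and 5892 bases from its end. Among 20 genes of RNA sensing only TANK (5.0%), an adaptor of the kinase TBK1, had one, chr2:161160379-161160540, centred 31 bases from an inner start. None of 28 NF-kB and inflammatory genes had one, which allows up to 10.7%. The HA list had no IRF3 peak near TANK and 1 near IFI6.

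In the TGF-beta groups the members lay at 6 genes. Among 41 Smad target genes there were 4 (9.76%), a share not tested against that of all genes. Any IRF3 peak of caSmad3 cells lay at 27 of the 41, where 40.5% of all genes had one. PMEPA1, an inhibitor that binds Smads, had a peak of 102 bases at chr20:57710386-57710487, 141 bases from an inner start and 60 bases from a Smad3 peak. TGIF1, a corepressor of Smads, had one of 116 bases centred 35 bases from an inner start, with Smad3 1177 bases off. LTBP3, which holds latent TGF-beta in the matrix, had one of 143 bases that lay 2559 bases before its start, and Smad3 was 493 bases away. CCN2 is described below. Among 24 receptor and pathway genes there were 2. SMAD1, the effector of bone morphogenetic proteins, had a peak of 144 bases centred 74 bases from an inner start, and EP300, an acetyltransferase that serves IRF3 and Smad3 as a coactivator, had one 1107 bases before its start. None of these 6 genes had a listed IRF3 peak in HA cells, where 23.5% of all genes had one. At the 4 target genes, which come from a list of Smad targets, a Smad3 peak of caSmad3 cells lay within 1177 bases of a member. Over all members, 12.1% had one within 1 kb and 20.2% within 10 kb. At SMAD1 and EP300 none lay within 137360 bases of the member.

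CCN2 (also CTGF), a matrix protein gene induced by TGF-beta and by YAP, held 2 members. The caSmad3 list had 6 IRF3 peaks at this gene, chr6:131948176-131951372, which is read from the minus strand, and the HA list had none within 864243 bases of the members. The members were chr6:131949316-131949626, of 311 bases, and chr6:131949815-131950179, of 365 bases. They lay 1295 and 1375 bases from a gene end, in a gene so short that only its middle is over 1 kb from both ends. Of the other 4 IRF3 peaks, 3 shared 70, 354 and 173 bases with a Smad3 peak, and one, of 1203 bases, lay 342 bases from Smad3. The members were 742 and 189 bases from a Smad3 peak. At this gene the members were thus pieces of a block of IRF3 peaks that spans the whole gene and includes peaks with Smad3.

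**Figure D5:**
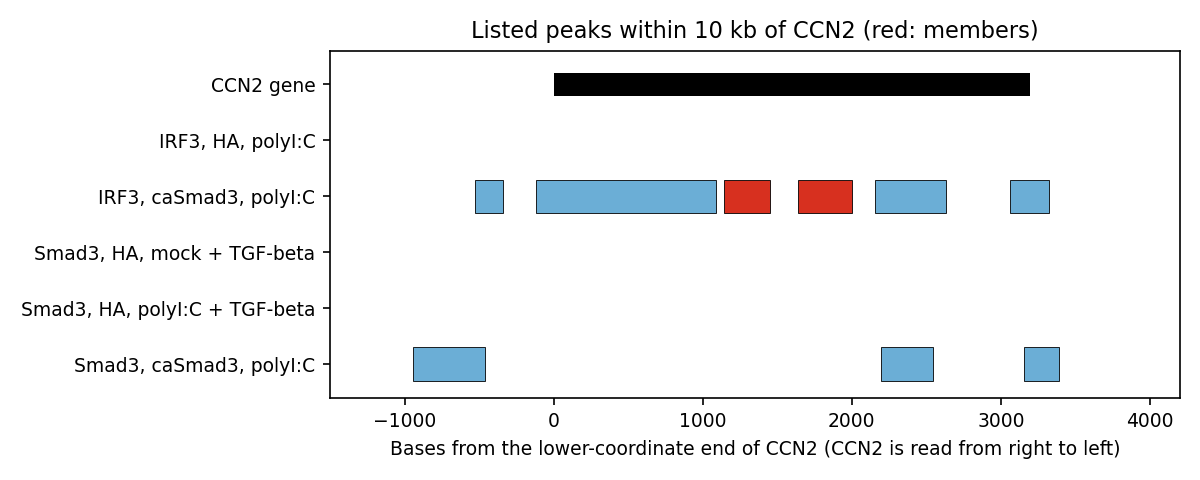
Listed peaks at CCN2 by library, in bases from the lower-coordinate end of the gene, with the 2 members in red. The 6 IRF3 peaks of caSmad3 cells cover most of the gene, 3 Smad3 peaks of caSmad3 cells lie below it, inside it and at its start, and the 3 lists of HA cells hold none here.

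Matrix, YAP pathway, early response, cell death, actin and receptor kinase genes had shares above the 3.77% of all genes, each resting on 5 genes or fewer. With lists this short these shares were not tested against that of all genes. Any IRF3 peak of caSmad3 cells lay at 20 of 50, 12 of 17, 19 of 30, 18 of 39, 23 of 35 and 18 of 34 of them, in that order. Of all genes 40.5% had one. IRF3 peaks of HA cells lay at 8 of 50, 3 of 17, 15 of 30, 9 of 39, 18 of 35 and 7 of 34. Of all genes 23.5% had one of HA cells. Of 50 mesenchymal and matrix genes 5 (10.0%) had one. LAMC1, a laminin chain, had 2, of which the wider, chr1:183022193-183022482 with 290 bases, lay 1083 bases before its start and 79 bases from Smad3. PLAU, the urokinase gene, had one of 143 bases centred 41 bases from an inner start. AXL, a receptor tyrosine kinase, had one of 161 bases inside it, and VIM (vimentin) and THBS1 (thrombospondin-1) had one of 99 bases each. Among 17 genes of the YAP and TEAD pathway there were 4 (23.5%), namely CCN2, AXL, AJUBA, an inhibitor of LATS kinases, and VGLL4, a competitor of YAP. The VGLL4 peak, chr3:11643718-11644001 with 284 bases, was centred 56 bases from an inner start and lay 77956 bases from the gene's end. With 17 genes the share rests on few.

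The AP-1 and immediate early group had 4 of 30 genes (13.3%), and all 4 also had IRF3 peaks in HA cells. So did 15 of the 30 genes, against 23.5% of all genes. JUN had a member of 104 bases only 43 bases from an IRF3 peak of HA cells, and inside or within 10 kb of that gene lay 8 IRF3 peaks in caSmad3 cells and 7 in HA cells. EGR1 had one of 166 bases that lay 1438 bases before its start, with 4 IRF3 peaks in HA cells. IER2 had 2 members, 549 and 8219 bases from an HA peak, and ZFP36L1, which speeds decay of messenger RNAs, had one 1325 bases from an HA peak. The EGR1 member lay 1526 bases from an HA peak. Distances from these members to an IRF3 peak of HA cells thus ran from 43 to 8219 bases.

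Among 39 cell death genes 4 (10.3%) had members, of which 3 are described. BCL2L1, which encodes the survival protein Bcl-xL, had one of 123 bases centred 34 bases from an inner start. RIPK1, a kinase of necroptosis, had 2, of 99 and 125 bases, with an IRF3 peak of HA cells 312 and 621 bases away. BBC3, which encodes the death protein PUMA, had one of 130 bases beside MIR3190. Of 35 actin and adhesion genes 3 (8.57%) had one, TPM4, FLNA and CALD1. The CALD1 peak, at an inner start of this actin-binding protein gene, had 258 bases and was centred 11 bases from it. Of 34 receptor kinase and MAPK genes 3 (8.82%) had one. ERBB2 had a peak of 188 bases inside the gene, DUSP6, a phosphatase of ERK, had one of 292 bases 1292 bases before its start, and ETS1 had one of 155 bases beside MIR6090 and 292 bases from Smad3.

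Epithelial genes had 2 of 27 (7.41%), and leukocyte markers (18 genes) and silent tissue-specific genes (35 genes) had none, which allows up to 16.7% and 8.57%. GATA3, the master factor of luminal breast cells, held 3 members around inner starts, of 218, 178 and 313 bases at chr10:8053654-8055027. Their centres lay 121, 367 and 183 bases from a start, the nearest IRF3 peak of HA cells lay 265358 bases away and the nearest Smad3 peak 1550. ESRP2, an epithelial splicing factor, had a member of 99 bases at 1272 bases from its end.

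GATA3 was 1 of 12 genes that tied for the most members, with 3 inside or within 10 kb, and of 8 that held all 3 inside. The others of the 8 were ADGRL2, BCAR3, CCDC7, FOXP1, PHF8, PPM1A and ZSCAN5A. In ADGRL2, an adhesion receptor gene, the members of 153, 99 and 123 bases were centred 29, 81 and 134 bases from starts. In PHF8, a histone demethylase gene on chromosome X, the 3 members of 99, 99 and 268 bases were centred 334, 99 and 186 bases from starts. PPM1A, a phosphatase reported to act on Smad2 and Smad3, had 163, 112 and 125 bases at 1118, 422 and 251 bases from a start. FOXP1 was the exception in that none of its 3 members lay at a start. For the members in ADGRL2, PHF8, PPM1A and FOXP1 no IRF3 peak of HA cells lay within 155786 bases. BCAR3 differed, with its members 10935, 200 and 47 bases from an IRF3 peak of HA cells. In ZSCAN5A and CCDC7 the nearest lay 62870 and 389335 bases away.

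The letters at the starts could be searched through RefSeq windows of 300 bases, from 250 before to 50 after each start. Of the 35116 windows, 329 windows of 291 genes shared a base with a member. In turn, 283 of the 1061 members (26.7%) shared a base with a window, and 149 shared at least 100 bases. A match in a window may thus lie outside the peak. The 329 windows were rich in G and C, with a median of 66.3% against 58.7% over all windows. They had 27 CG dinucleotides against 14. The 15 patterns searched on both strands were as follows. The ISRE core is a pair of GAAA with any 2 bases between, and the extended ISRE, which contains the core, has a further GAAA at the same spacing. The AP-1 site was TGANTCA, the CRE TGACGTCA, the Smad palindrome GTCTAGAC and the short Smad site CAGACA. For NF-kB the search used GGGNNTTCC, for ETS factors CCGGAAGT, for TEAD factors GGAATGT and for RUNX factors TGTGGTT. The GC box, CCAAT box and CRE are spelled above, the E-box was CACGTG, and the patterns of CTCF and NRF1 are given by name alone.

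The ISRE core was found in 8 of the 329 windows (2.43%, 1.06 to 4.73), against 3.57% of all windows, and the extended ISRE in 0, which allows up to 0.912%, against 0.154%. The short Smad site was in 10.9% (7.78 to 14.8) against 16.9%, and the Smad palindrome in 0 against 0.202%. AP-1 was in 4.26% (2.35 to 7.04) against 7.71%. More frequent than over all windows were the GC box, in 74.5% (69.4 to 79.1) against 44.95%, the CCAAT box, in 42.2% (36.9 to 47.8) against 34.6%, the CRE, in 4.56% (2.57 to 7.41) against 1.85%, the ETS pattern, in 7.29% (4.73 to 10.7) against 4.14%, and NRF1, in 3.95% (2.12 to 6.66) against 1.24%. For NF-kB (6.99%), CTCF (3.34%), RUNX (3.65%) and the E-box (9.42%) the share of all windows lay inside the interval of the members. So it did for the ISRE core and for TEAD, which was in 1.52% (0.495 to 3.51) against 3.46%. The 0 counts of the extended ISRE and the Smad palindrome likewise allow more than the share of all windows. For these patterns no difference from all windows was shown. In the 214 protein-coding windows of the members, the GC box (76.2% against 56.3%) and CCAAT box (44.9% against 34.7%) stayed above all protein-coding windows. There the overall shares of CRE (2.26%), ETS (5.34%), NRF1 (1.50%), AP-1 (6.15%) and the short Smad site (15.2%) lay inside the members' intervals. In the 115 lncRNA windows CRE (5.22% against 1.15%), ETS (6.96% against 2.07%) and NRF1 stayed higher, and AP-1 and the short Smad site lower. The higher GC content of the members' windows goes with GC-rich patterns, and its part in these shares was not tested. The windows at caSmad3-only peaks at gene ends were alike in the GC box (77.4%), ISRE core (1.94%), CRE (4.35%) and short Smad site (10.5%), with ETS in 13.3%. The 187 windows at constant peaks had the GC box in 73.8%, the CRE in 7.49%, ETS in 8.56% and NRF1 in 8.02%, so these patterns were not particular to the members. Windows of the same gene can overlap, so 1 site may be counted more than once. The intervals treat windows as independent and are then too narrow, so these comparisons are a description. A match is a description of letters, and absence says only that these letters are not in the window.

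The few matches to the IRF3 and AP-1 patterns that lay inside a member and before the start are shown because they are all there were in 246 such stretches of 30 bases or more. The ISRE core occurred in 1, before LINC00882, a lncRNA gene, at chr3:107240725-107240867 on the minus strand, under a peak of 143 bases with the pattern in capitals from base -138.
LINC00882: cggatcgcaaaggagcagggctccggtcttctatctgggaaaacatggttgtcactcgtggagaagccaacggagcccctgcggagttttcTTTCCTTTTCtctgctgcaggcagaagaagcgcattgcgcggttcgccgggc
AP-1 occurred in 4, with the pattern in capitals. CREB5, a factor that binds CREs, has it from base -44 in chr7:28686051-28686132 on the plus strand. FAM83G, which encodes a partner of SMAD1, has it from base -100 in chr17:19004811-19004989 on the minus strand. KDM3A, a histone demethylase gene, has it from base -40 in chr2:86441327-86441458 on the plus strand, and WDR45, an autophagy gene, from base -50 in chrX:49079888-49080086 on the minus strand.
CREB5: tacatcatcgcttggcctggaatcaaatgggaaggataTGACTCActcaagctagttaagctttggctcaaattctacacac
FAM83G: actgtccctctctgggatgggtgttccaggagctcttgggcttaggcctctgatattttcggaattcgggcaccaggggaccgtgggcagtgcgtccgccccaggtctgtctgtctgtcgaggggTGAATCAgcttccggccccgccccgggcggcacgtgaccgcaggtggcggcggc
KDM3A: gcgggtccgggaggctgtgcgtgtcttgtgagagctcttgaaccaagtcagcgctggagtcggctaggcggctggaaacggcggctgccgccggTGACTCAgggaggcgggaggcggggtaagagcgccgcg
WDR45: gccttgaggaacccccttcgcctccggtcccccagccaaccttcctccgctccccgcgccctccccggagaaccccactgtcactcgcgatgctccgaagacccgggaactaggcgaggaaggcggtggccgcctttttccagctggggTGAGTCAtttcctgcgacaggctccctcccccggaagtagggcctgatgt
The member at KDM3A lay 178 bases from a Smad3 peak, and the other 3 lay over 5 kb from one. The short Smad site occurred in 10 of the 246 stretches, and the CRE in 7 stretches of 5 genes.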

How the data were processed

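For each of 5 ChIP-seq libraries the authors deposited a list of peaks with chromosome, start, end and name, so the deposited values are positions in bases with no score, fold, p-value or read count. Chromatin of BT549 cells was precipitated with anti-IRF3 or anti-Smad3 antibody and amplified for 15 cycles in library preparation, per the labels' protocols. Per the submitters' processing notes the build was hg38 and the tools included MACS2 2.1.0 and Bowtie2 2.2.2.6. For calling thresholds, input controls and duplicate removal, nothing is given in the sources used here.

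A single common base (minimum 1) made peaks overlap. Distances ran from the peak centre to gene ends or starts, and between peaks they count the bases in between. Gene ends came from a RefSeq table of GRCh38.p14 with 20037 protein-coding genes, and starts from 35116 RefSeq windows of 27305 genes. No genome sequence was used, so the motif search planned for peaks was made in the windows, a choice made after seeing the data. Exons and introns were not used. Shares carry 95% Clopper-Pearson intervals from scipy 1.17.1 under Python 3.11.15, and a count of 0 is given with the share of 3 counts. No tests were made, since each group has 1 library. Overlap and distance code was tested on simulated data of 2000 intervals, with 0 wrong answers.

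Members and gene lists were chosen with earlier results of these data known. Genes were named by rule: the 10 widest members, list genes with a member inside or within 10 kb, the genes with most members (12 tied for 5 places, so the 8 with all inside are named), members sharing bases with Smad3 of HA cells, and those nearest each threshold. RUNX1, TERC, RNY5, the snRNA genes and the genes of printed sequences were chosen after their values were seen. Alternatives changed the overlap rule, the distance limit, the gene types, the peak width, the chromosomes and the window. Some items that the rule would name are not reported here.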

Additional observations from a re-analysis of the deposited data

How the results depend on the processing

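No paired analysis was possible because each group has 1 library, and no replicate could be left out. Of 120 recomputed values, 89 stayed within the main interval or within 1.5 times the main count and 31 moved, and the cause was not tested beyond what each alternative removes. The motif search in whole peaks was not run, since no genome sequence was used, and the share near non-coding gene ends has no value when those ends are part of the rule. With a gap under 500 bases also removing a peak, the share with another IRF3 peak within 10 kb was 30.2%. Over 5 kb from a gene end, 41.4% lay inside a gene, 30.6% had another IRF3 peak within 10 kb, 33.8% lay at a start and 22.1% at a protein-coding start, with a median distance of 31262 bases, a median width of 133 bases and 166 genes within 10 kb. Counting ends of genes of every type gave 58.1% inside a gene, 31.2% at a start, 30.8% at a protein-coding start and a width of 131 bases. The wider 50% of the list left 226 members, with 53.1% inside a gene, 0% with a Smad3 peak of HA cells (which allows up to 1.33%), 38.5% near a non-coding gene end, 50.0% at a start, 35.4% at a protein-coding start, a distance of 7226 bases, a width of 266.5 bases and 172 genes. Without chromosomes 3, 8, 9 and 20 the median distance was 13495 bases. A limit of 1 kb for the neighbouring IRF3 peak gave 24.9%, and a window of 50 kb gave 1729 genes. An alternative chosen after seeing the data, over 1 kb from every RefSeq start as well, left 654 members, with 33.8% inside a gene, 31.2% with another IRF3 peak within 10 kb, 23.4% near a non-coding gene end, a distance of 24180 bases, a width of 128.5 bases and 289 genes. Leaving out chromosome 8, or peaks near 45S genes, moved none of these values. Depth limits all counts, since peaks near the calling threshold can be present in one list and absent from another.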
